A study of Mus musculus with 3 samples.

Results

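Expression of 36 immediate-early response genes was examined in nephron progenitors of the embryonic mouse kidney, where it was set against array background and compared gene by gene between 3 replicate pools. The genes were chosen by name as genes that growth factors or tissue dissociation induce quickly. All 36 had at least 1 probe set assigned to that gene alone, and together they had 66 of the 45037 probe sets without controls, and made up 36 of 18193 named genes. The study measured RNA of cap mesenchyme cells, sorted by fluorescence from trypsin-treated E15.5 kidneys (Theiler stage 23) of CD-1 mice, with 1 array per pool of about 5 to 10 kidneys. All 3 pools belonged to 1 group and carried Tg(Six2-EGFP/cre)1Amc, in which Six2 regulatory sequences drive a fusion of EGFP and Cre. Embryos of unknown sex were pooled. There was no undissociated, unsorted or untreated group, so the data hold no baseline against which an induction could be measured. The labels do not say whether the pools came from separate litters. Each p-value sets the distance of a mean from background against the spread between only these 3 pools. The estimate of that spread also borrows from other probe sets, and the spread may be partly technical.

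Immediate-early genes are transcribed within minutes of a stimulus, without the need for new protein, because the factors that switch them on are already present and are activated by phosphorylation. Growth factor receptors act through the RAS and MAP kinase cascade on serum response factor and its ETS partners, which bind CArG boxes, while CREB binds cAMP response elements and NF-kappaB is released from its inhibitor. Many of the products are transcription factors (the FOS, JUN, EGR, KLF and NR4A families), and others shut the response down by removing phosphate from MAP kinases or by hastening mRNA decay. In kidney the same genes respond to the enzymes and warm incubation used to free cells from tissue, and nephron progenitors are also exposed to FGF signals that use the MAP kinase cascade.

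Promoter sequences from the RefSeq table (GRCm38.p6) were used for 27 of the 36 genes. None was used for Fosl1, Egr1, Egr3, Ier2, Dusp4, Zfp36l2, Klf10, Myc and Arc. Promoters on 1 chromosome were left out for the 36 genes but kept for all genes. A gene without a promoter here may therefore still have an entry. The 250 bases before each annotated start were searched on both strands for the CArG box, the cAMP response element TGACGTCA, the AP-1 site TGANTCA and the EGR site GCGGGGGCG. No match of one motif overlaps a match of another in the sequences shown. A CArG box was found in 3 of 27 genes (Egr2, Dusp5 and Zfp36) against 1.62% of all 27025 genes with a promoter entry. A cAMP response element was found in 3 of 27 (Dusp1, Btg2 and Maff) against 1.77%, an EGR site in 7 of 27 (Fosb, Fosl2, Dusp2, Zfp36, Nr4a1, Klf2 and Klf4) against 2.93%, and an AP-1 site in 1 of 27 (Zfp36l1) against 7.82%. A match is a run of letters and not a measured binding site. Shown first, 5′ to 3′ with the matches in capitals, are the 4 promoters with a CArG box or cAMP response element that overlap no other annotated gene or start.
Dusp5, chr19:53528895-53529144, plus strand: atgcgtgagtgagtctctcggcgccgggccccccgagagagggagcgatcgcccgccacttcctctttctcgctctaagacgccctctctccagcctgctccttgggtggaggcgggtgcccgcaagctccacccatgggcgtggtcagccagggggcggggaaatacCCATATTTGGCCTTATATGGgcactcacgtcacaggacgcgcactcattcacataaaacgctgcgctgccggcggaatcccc
Zfp36, chr7:28379229-28379478, minus strand: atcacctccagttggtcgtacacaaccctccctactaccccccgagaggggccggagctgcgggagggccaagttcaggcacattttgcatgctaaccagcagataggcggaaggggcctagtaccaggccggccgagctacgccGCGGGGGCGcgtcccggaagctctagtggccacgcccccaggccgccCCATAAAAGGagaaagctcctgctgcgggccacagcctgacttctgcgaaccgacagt
Dusp1, chr17:26508473-26508722, minus strand: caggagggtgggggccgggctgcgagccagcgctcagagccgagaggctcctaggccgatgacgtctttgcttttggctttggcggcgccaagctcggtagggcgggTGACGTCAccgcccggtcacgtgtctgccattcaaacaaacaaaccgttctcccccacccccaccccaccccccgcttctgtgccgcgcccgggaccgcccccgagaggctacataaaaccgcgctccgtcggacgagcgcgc
Btg2, chr1:134079156-134079405, minus strand: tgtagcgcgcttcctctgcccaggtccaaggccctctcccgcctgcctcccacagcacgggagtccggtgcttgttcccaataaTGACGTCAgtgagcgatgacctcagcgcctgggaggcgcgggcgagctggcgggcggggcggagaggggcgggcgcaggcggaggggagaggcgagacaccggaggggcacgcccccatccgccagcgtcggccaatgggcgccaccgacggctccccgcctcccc

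The Dusp5 promoter held 2 CArG boxes side by side, which began 82 and 72 bases before the start, and the box of Zfp36 began 58 bases before it. The cAMP response elements of Dusp1 and Btg2 began 143 and 166 bases before the start. Egr2 and Maff have several annotated starts, so only 30 bases around each match are shown for them, with the match in capitals.
Egr2, chr10:67537484-67537513, plus strand: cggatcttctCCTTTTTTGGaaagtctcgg
Egr2, chr10:67537787-67537816, plus strand: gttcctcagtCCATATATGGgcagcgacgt
Maff, chr15:79347480-79347509, plus strand: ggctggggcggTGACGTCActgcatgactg

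Most of the immediate-early genes had a signal above background in the sorted cells. The background level was the 95th percentile of 150 probe sets for sensory receptor, hair and mucosal defence genes, and lay at a signal of 197, 186 and 201 in pools 1, 2 and 3. With limma, tested one-sided and adjusted by Benjamini-Hochberg over all 45037 probe sets, 30 of 36 genes were above it in at least 1 probe set, against 54.4% of all named genes. Fosl1, Junb, Atf3, Egr4, Nr4a3 and Arc did not pass. Of the 66 probe sets 43 passed, against 41.5% of all probe sets. For 7 of the 30 genes (Fosl2, Jund, Egr3, Klf6, Nr4a2, Zfp36l2 and Ier5) some probe sets passed and others did not. A gene's call therefore depends on which probe sets the array carries. Signals are linear array units and cannot be ranked between genes, because probe sets differ in affinity. Each gene is described by the brightest of its probe sets, judged by mean log2(signal + 16). A log2 difference on that scale understates differences of weak signals. Folds given for single genes are ratios of the signals themselves.

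**Figure D1:**
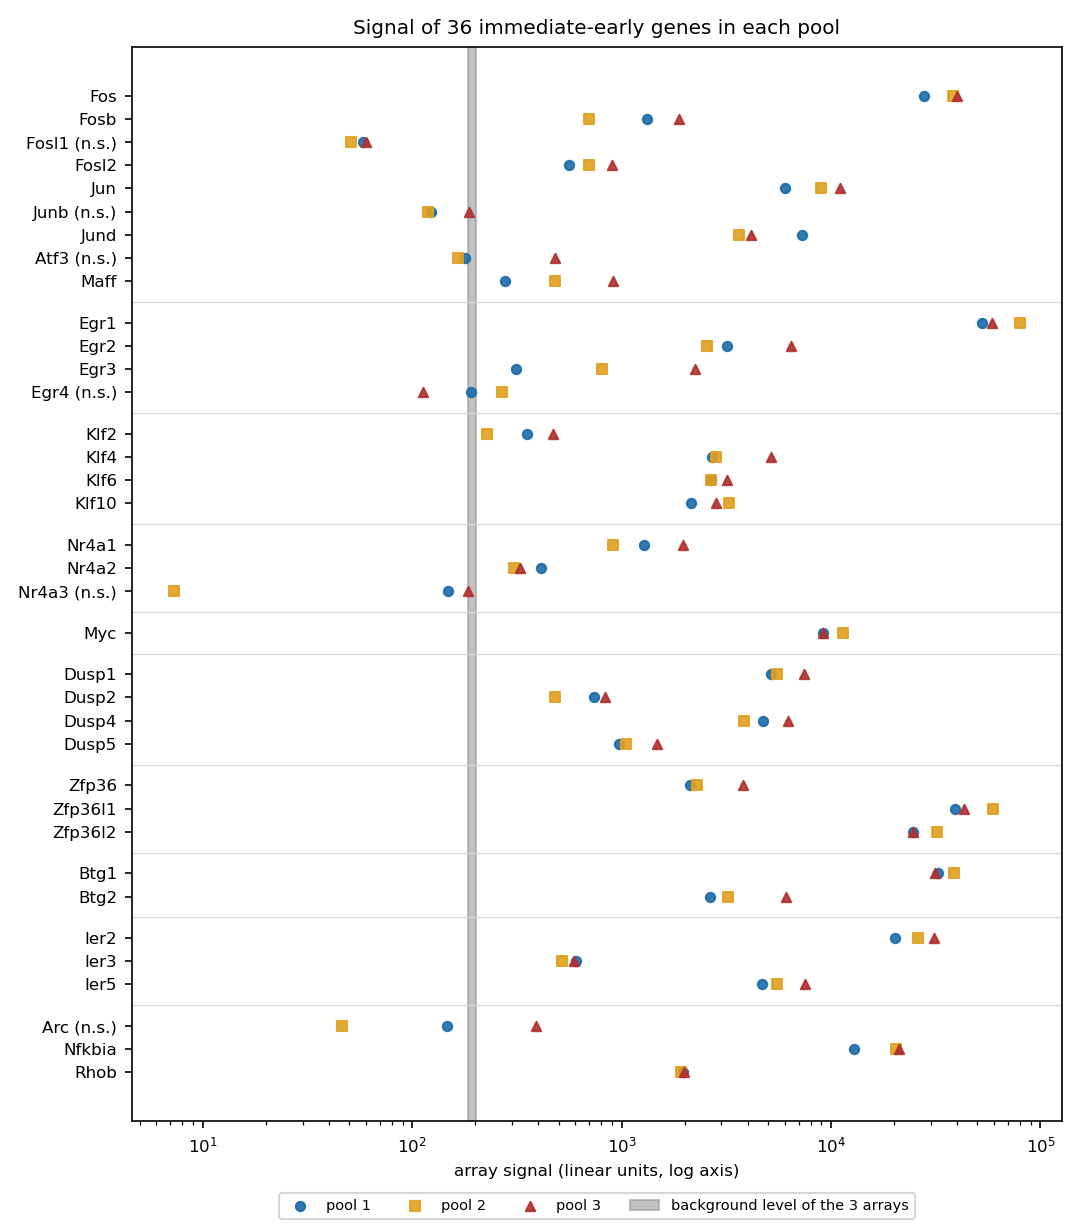
Array signal (linear units on a log axis) of the 36 genes, each by 1 probe set, in pools 1 (circles), 2 (squares) and 3 (triangles), grouped by role; the grey band spans the background levels of the 3 arrays (186 to 201) and "n.s." marks the 6 genes not above background. The triangle is the rightmost symbol in 26 of 36 rows, and Egr3, Egr2, Btg2 and Klf4 show it clearly to the right of both other pools.

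Pool 3 had the highest signal for most of these genes. Among the 30 above background it was highest for 21, pool 2 for 6 and pool 1 for 3, against 43% of all named genes above background for pool 3, 27.5% for pool 2 and 29.5% for pool 1. Pool 3 was above pool 1 for 25 of the 30 genes (59.5% of all genes) and above pool 2 for 24 (58.7%). Without the background filter pool 3 was highest for 26 of 36 genes, against 38.9% of all 18193 named genes. The median difference between pools 3 and 1 was 0.51 (log2) over the 30 genes and 0.10 over all named genes above background, and between pools 3 and 2 it was 0.33 and 0.08. Pools 2 and 1 differed by a median of 0.18 over the 30 genes and 0.02 over all genes. The 3 pools are replicates of 1 group, so these differences are the spread between replicates, they have no test, and each rests on 1 array per pool.

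The share of all genes with pool 3 highest depended on the scaling. With the medians of the arrays aligned it was 60.5%, with 22 of the 30 immediate-early genes, and the median difference between pools 3 and 1 was 0.76 over these genes and 0.34 over all genes. With quantile normalization pool 3 was highest for 23 of 30, against 43.5%. The median signal over all probe sets lay 0.25 (log2) lower in pool 3 than in pool 1 and 0.16 lower in pool 2, and aligning the medians adds those amounts. The highest pool was another under one or both of these scalings for Egr1, Ier3, Zfp36l1, Btg1 and Rhob. The brightest signal of an array was 139283 in pool 2, against 75402 in pool 1 and 75242 in pool 3. Its bearing on the order of pools for bright genes was not tested.

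**Figure D2:**
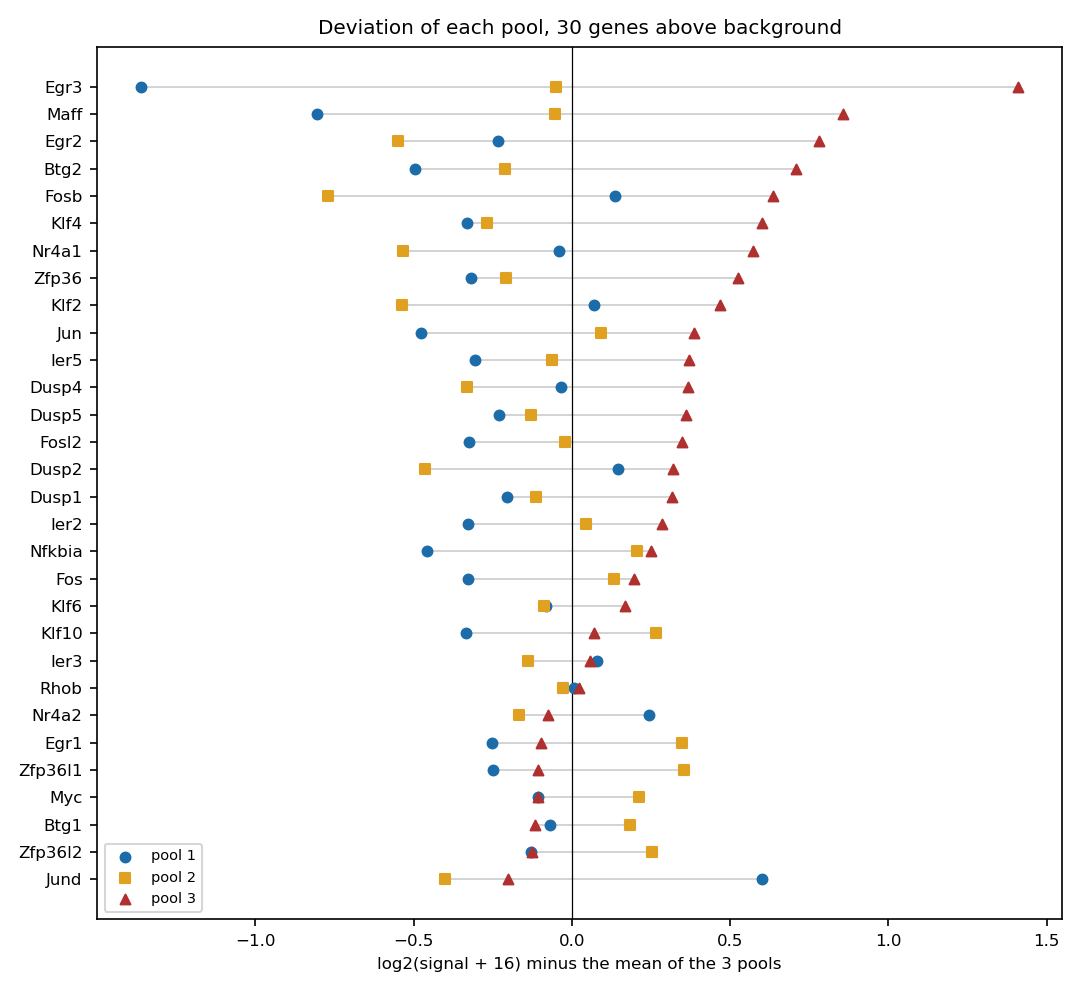
For the 30 genes above background, log2(signal + 16) in each pool minus the mean of the 3 pools, ordered by the value of pool 3; grey lines join the lowest and highest pool. Pool 3 lies right of both other pools for 21 genes, from Egr3, Maff and Egr2 at the top to Rhob, whose pools nearly coincide. Egr1, Zfp36l1, Zfp36l2, Klf10, Myc and Btg1 have pool 2 on the right, and Jund, Ier3 and Nr4a2 have pool 1.

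The spread between pools was next taken for each gene as the range from the lowest to the highest pool. Its median was 0.68 (log2) over the 30 genes and 0.44 over all named genes above background. The highest pool was at least 2-fold over the lowest, on the log2(signal + 16) scale, for 8 of the 30 genes, against 6.87% of all genes. Of these, 7 had pool 3 highest (Egr3, Maff, Fosb, Egr2, Btg2, Nr4a1 and Klf2), against 3.47% of all genes, and the other was Jund, with pool 1 highest. With 2 pools the counts were 4 without pool 1 (2.29% of all genes), 2 without pool 2 (3.55%) and 2 without pool 3 (2.46%). At the other end, 7 of the 30 genes had a range under 0.5, against 58.2% of all genes.

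**Figure D3:**
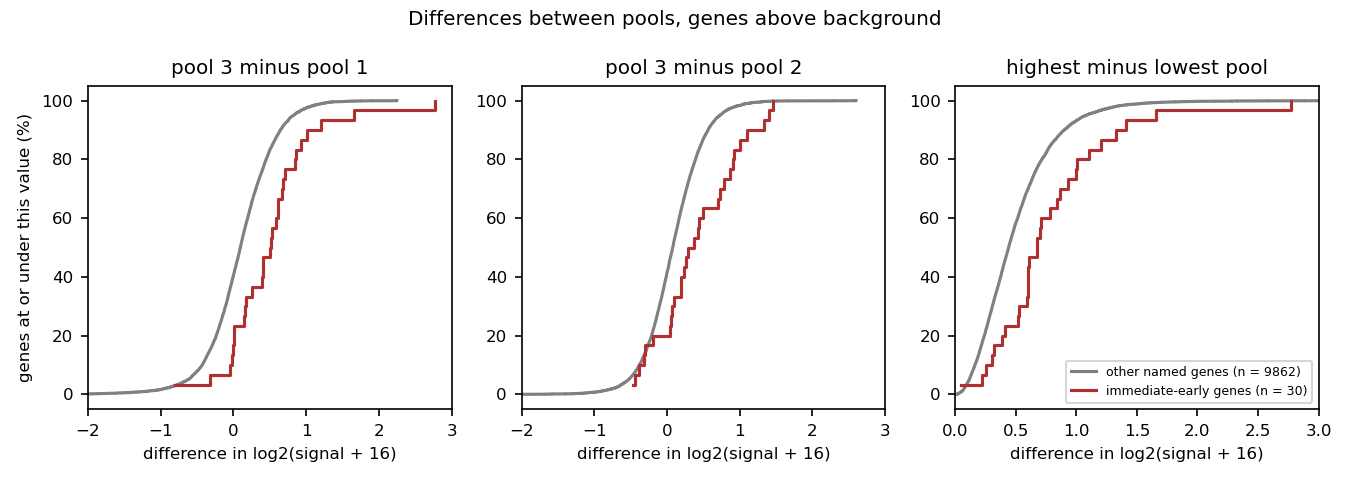
Cumulative share of genes (percent) at or under a given difference in log2(signal + 16) between pools 3 and 1, between pools 3 and 2, and between the highest and lowest pool, for the 30 immediate-early genes above background (red) and the 9862 other named genes above background (grey). The red steps lie right of the grey curve over most of each panel, and the curves meet at the left ends.

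The AP-1 genes encode leucine zipper proteins that bind DNA as pairs, usually a FOS with a JUN partner. Fos had signals of 27809, 38299.5 and 40057 in pools 1, 2 and 3 (mean 35389 ± 6623, SD, n = 3; adjusted p = 1.6e-08, limma). Pool 1 was the low one, and pools 2 and 3 differed by 0.06 (log2). Jun read 6062, 8995 and 11044, in the same order as Fos, and its other probe set read 3338, 3106 and 4832, with pool 3 again highest. Fosb, whose shorter isoform lacks the activation domain, read 1324, 698 and 1875 (adjusted p = 3.4e-05, limma), so that pool 2 was low where it had been near the top for Fos. Fosl2, another FOS relative, read 561, 697 and 903 (adjusted p = 5.9e-05, limma). It fell short of the threshold when the mean over its probe sets was used (adjusted p = 0.0622), since its other probe set, at 131, 41.3 and 126, was not above background.

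Jund, the JUN member that is usually present without a stimulus, was the exception in this family. Its signals were 7275, 3626 and 4162, with pool 1 about 2.01-fold over pool 2. Maff, a small MAF protein without an activation domain, read 278, 480 and 914, and pool 3 was 3.29-fold over pool 1. Its adjusted p was 0.0063 (limma), and 0.0639 without pool 2. Junb, often induced together with Fos, was not above background at 124, 119 and 186. Atf3, a stress-induced repressor, read 180, 165 and 483 (adjusted p = 0.444, limma): pools 1 and 2 lay under the background level and pool 3 over it. Fosl1 was far under background in both probe sets, at 58.5, 51.2 and 60.2 in the brighter one.

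The early growth response genes encode zinc finger activators that bind GC-rich sites. Egr1 read 52566, 79613 and 58462 (mean 63547 ± 14223, n = 3; adjusted p = 1.6e-08, limma), with pool 2 highest, or pool 3 with quantile normalization. Egr2 read 3188, 2561 and 6466, and its other probe set 1555, 830 and 2679. In both, pool 3 stood above the other pools, by 1.02 over pool 1 and 1.33 over pool 2 (log2) in the brighter one. Egr3 had the widest range of the 30 genes, with signals of 314, 802 and 2232, a fold of 7.12 between pools 3 and 1. It was above background with an adjusted p of 0.0042 (limma), or 0.0537 without pool 2, and its other probe set, at 159, 199 and 164, was not. Egr4 was at the background level, with 191, 267 and 113, and pool 3 was its lowest.

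All 4 Krueppel-like factor genes were above background. Klf4, a zinc finger factor known from pluripotent and epithelial cells, read 2699, 2818 and 5165, so pools 1 and 2 nearly coincided and pool 3 was 1.91-fold over pool 1. A dimmer probe set of Klf4 went the other way, at 459, 370.4 and 224 (adjusted p = 0.0386, limma). Klf6 read 2683, 2671 and 3194 and its next probe set 852, 1074 and 1185. Klf10, an early target of TGF-beta, had pool 2 highest, with 2134, 3241 and 2827. Klf2, known for its response to blood flow in endothelium, lay close to background at 354, 227 and 472 (adjusted p = 0.0316, limma) and did not pass without pool 1 (0.0719) or without pool 3 (0.176).

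The NR4A genes encode nuclear receptors that act without a known ligand and are controlled mainly through their transcription. Nr4a1 read 1286, 909 and 1975 (adjusted p = 8e-06, limma), the same order of pools as Fosb, Egr2 and Klf2. Nr4a2 passed in 1 of its probe sets, with 411, 305 and 326 (adjusted p = 0.0148, limma), and not without pool 1 (0.0722) or pool 2 (0.0663). Nr4a3 did not pass in any probe set, and its brightest one read 148, 7.3 and 185. Myc, a factor that drives growth and is expressed in nephron progenitors, read 9184, 11466 and 9183 (mean 9944 ± 1318, n = 3; adjusted p = 1.7e-08, limma). Pools 1 and 3 nearly coincided for Myc, and pool 2 was 1.25-fold over pool 3.

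The 4 MAP kinase phosphatase genes among the 36, Dusp1, Dusp2, Dusp4 and Dusp5, were above background (54.4% of all named genes) and highest in pool 3 (43% of those above background). Dusp1, which removes phosphate from stress kinases and ERK in the nucleus, read 5190, 5533 and 7454 (adjusted p = 2.8e-08, limma). Dusp4, a nuclear phosphatase of the same kind, read 4728, 3842 and 6245. Dusp5, which acts on ERK, read 975, 1046 and 1476, and Dusp2 read 741, 479.5 and 837. The range was 0.52 to 0.78 (log2) over the 4 genes, so none reached 2-fold. Dusp5 and Dusp1 are the genes with the paired CArG boxes and with a cAMP response element shown above.

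The ZFP36 proteins bind AU-rich elements and bring mRNAs, among them those of other early genes, to decay. Zfp36 read 2119, 2287 and 3810.0, with pool 3 1.80-fold over pool 1. Its relatives had another highest pool: Zfp36l1 read 38947, 59221 and 42995 and Zfp36l2 read 24523, 31992 and 24602, both with pool 2 highest, although Zfp36l1 had pool 3 highest with quantile normalization. All 3 were above background (adjusted p of 4.9e-07 or less, limma). Other probe sets of Zfp36l2, with mean signals of 46.8 and 22.2, were not. The BTG proteins slow proliferation and recruit the enzymes that shorten poly(A) tails. Btg2 read 2633, 3209 and 6082, and its other probe set 2511, 2525 and 4770.3, so pool 3 stood above both other pools in each. Btg1 read 32485, 38697 and 31409 with a range of 0.30 (log2), and had pool 1 highest with quantile normalization. Its next probe set read 21859, 23014 and 21231. A dimmer one, also above background, had pool 1 highest at 1941, 915 and 964, with a range of 1.07 (log2).

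Ier2, a nuclear protein of unsettled function, read 20188, 26124 and 30875 (mean 25729 ± 5354, n = 3), and Ier5, a regulator of heat shock factor 1, read 4678, 5541 and 7496. Both had pool 1 lowest and pool 3 highest, the order seen for Fos and Jun. Ier3, a stress-induced survival gene, read 605, 518 and 595, with pools 1 and 3 nearly equal. Nfkbia, the inhibitor that holds NF-kappaB in the cytoplasm and is itself an NF-kappaB target, read 12942, 20505 and 21115. All 5 of its probe sets were above background, with pool 3 highest in 3 and pool 2 in 2. Rhob, a short-lived GTPase of endosomes, had the narrowest range of the 30 genes at 1975, 1926 and 1995. Arc, an early gene of neurons, did not pass, with 146, 46.1 and 389. Of the 9 genes with several probe sets above background, 6 had the same highest pool in each, and the exceptions were Klf4, Btg1 and Nfkbia.

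RNA of kinases and factors that act before these genes was above background in the sorted cells. Of 34 upstream regulators listed, 9 were not analysed here, and the 25 measured were all above background (54.4% of all named genes). Pool 3 was highest for 6 of 25 (43% over all genes), and the median difference between pools 3 and 1 was -0.10 (log2), or 0.15 with medians aligned against 0.34 over all genes. Map2k1, the kinase that phosphorylates ERK, read 12315.5, 12334 and 13544, the serum response factor coactivator Mrtfb 13790, 14296 and 12837, and the ETS partner Elk4 12286, 11969 and 10959. The coactivator Crebbp read 15169, 15891 and 13128. Weakest against background were Mrtfa (526 ± 118), the coactivator Ep300 (714 ± 303) and Elk1 (582 ± 23.1, n = 3 each), and the widest ranges were those of Map2k2, with 3673, 1726 and 2912, Ep300 and Mapkapk2 (1.08, 0.96 and 0.96, log2).

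Other genes known as early or stress responders mostly had pool 3 highest as well. Of 35 measured, 27 were above background (54.4% of all named genes). Pool 3 was highest for 18 of these (43% of all named genes above background). Socs3, an inhibitor of cytokine signalling, read 7819, 6349 and 16996, and the chemokine gene Cxcl1 read 497, 218 and 635 (adjusted p = 0.0152, limma). Hspa1b, the heat shock protein 70 gene, was the opposite, with 11489, 7087 and 3644 in pools 1, 2 and 3, so its lowest pool was the highest one for most early genes. Mcl1 (24543 ± 1786), Odc1 (40090 ± 7390), Id1 (6807 ± 949.7) and Ccnl1 (7196 ± 822, n = 3 each) were the most clearly above background, and Trib1, Ptgs2 and Csrnp1 were not above it (81.2 ± 24.6, 112 ± 50.7 and 138 ± 70.1). Hspa1a shares nearly identical sequence with Hspa1b, so the array may not separate them. Socs3, Cxcl1 and Mcl1 were read by _x_at probe sets, which may also match other transcripts. Without _x_at and _s_at probe sets, 25 genes of this list were above background.

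Feedback genes of the MAP kinase cascade outside the 36 were mostly above background too. Of 13 measured, 11 were above background (54.4% of all named genes). Pool 3 was highest for 3 of them (43% of all named genes above background). Dusp6, an ERK phosphatase and FGF target, read 21597, 24420 and 16532, with pool 3 lowest, and Spred1 (9218 ± 489) and Spred2 (7381 ± 949, n = 3 each), which restrain RAS signalling, had ranges of 0.15 and 0.33 (log2). Errfi1, an inhibitor of the EGF receptor, read 11124, 7953 and 13729, and Spry1 6495, 3568 and 6128. Spry4 was the widest, with 543, 265 and 1368 (adjusted p = 0.0075, limma). Dusp10 was near background (347 ± 80.3), and Dusp14 (84.1 ± 13.7) and Dusp8 (90.8 ± 32.3) were not above it.

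The pools also differed in measures of RNA and in the summed signals of cell type markers. The ratio of 3′ to 5′ control signals was 3.54, 9.72 and 9.08 for Actb, 20.5, 33.1 and 16.9 for Gapdh, 3.57, 8.86 and 5.94 for the transferrin receptor and 1.02, 1.70 and 2.45 for 18S ribosomal RNA in pools 1, 2 and 3. Pool 2 was highest for the first 3 and pool 3 for 18S, and pool 1 was lowest for all but Gapdh. The 5′ probe set of 18S ribosomal RNA read 51529, 31805 and 6832, with pool 3 lowest. All 10 measured cap mesenchyme markers were above background, and their summed signal was 134502, 137729 and 120315. Stroma markers summed to 19885, 25342 and 17503 with 8 of 10 above background, endothelium markers to 7111, 8544 and 9335 with 2 of 10, macrophage markers to 1190, 1085 and 1605 with 1 of 10, ureteric bud markers to 1699, 1275 and 2375 with 3 of 11, and erythroid markers to 563, 835 and 689 with 0 of 8. Over all named genes, 54.4% were above background. Pool 2 was highest for 6 of the 8 stroma markers above background, against 27.5% of all named genes above background. Above background were the endothelial Egfl7 and Ramp2, the macrophage Laptm5 and the ureteric Wnt11, Krt8 and Krt18. The other markers of these lists, among them Pecam1, Cdh5, Kdr, Csf1r, C1qa, Ret and Wnt9b, were not. Ramp2 alone made up 82.4% of the endothelium sum. Endothelium, macrophage and ureteric sums were highest in pool 3, but each of these sums includes the signals of markers not above background. The part of these cells in the early gene signals was not tested, nor was that of the RNA measures. In pooled RNA, fewer cells that express a gene and less RNA per cell cannot be told apart.

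**Figure D4:**
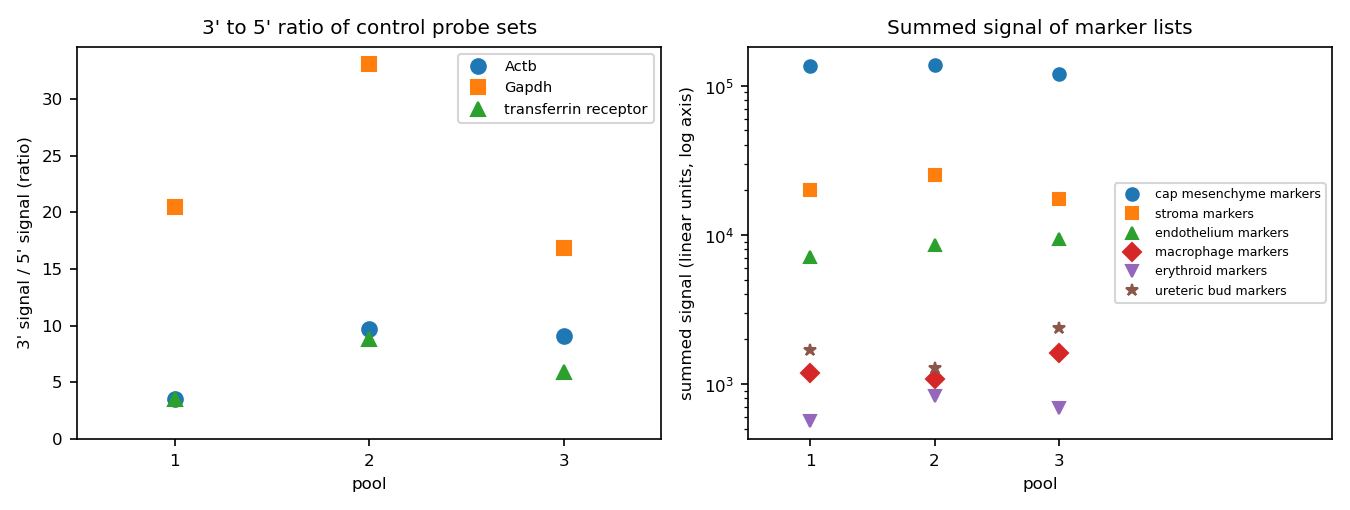
Left, ratio of 3′ to 5′ signal of control probe sets for Actb, Gapdh and the transferrin receptor in each pool (1 point per array). Right, summed signal of 6 lists of cell type markers in each pool (linear units on a log axis): cap mesenchyme sums lie between 120315 and 137729, and macrophage, ureteric bud and erythroid sums between 563 and 2375 in all pools.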

How the data were processed

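Per the labels' protocols, trypsin acted on the kidneys for 5 minutes (37 °C), cells passed a 70 micron mesh before sorting, and RNA went through 2 rounds of amplification. The file holds array intensity values on a linear scale for 45101 probe sets, made by the authors with GCOS per the submitters' processing notes; its settings are not given in the sources used here. In the file the mean signal, trimmed by 2% at either end, was 1500.0 on each array; the brightest signals lie outside that mean, and the highest were 75402, 139283 and 75242 in pools 1, 2 and 3. The arrays give no depth, and their number limits the precision.

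The platform annotation named 34945 probe sets with 1 symbol and 932 with several, and left 9160 unnamed; 64 controls were left out. All 36 genes matched RefSeq by Entrez identifier. log2(signal + 16) minus each array's background level was tested with limma 3.58.1 (R 4.3.3; intercept only, eBayes with intensity trend, one-sided, adjusted p under 0.05). A gene passed if any of its probe sets did. In simulated data, 56%, 90%, 100% and 100% of probe sets placed 0.5, 1, 2 and 3 log2 units over background were called, and 0.179% of those below it. Each offset had 50 simulated probe sets. Noise was drawn independently for each probe set, so these rates may not hold for the real arrays. Pools were compared without a test. The 36 genes could all be named; of the further lists, the 4 genes with the largest and 3 with the smallest statistic and the 3 with the widest range. Genes and lists were chosen with earlier results of these data known. Plots were drawn with matplotlib 3.10.9 in Python 3.11.15.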

Additional observations from a re-analysis of the deposited data

How the results depend on the processing

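Each result was recomputed under 13 alternatives. Background was set at its 99th or 90th percentile, or the pseudocount at 1 or 64. Arrays were quantile normalized or had their medians aligned. Only probe sets with a mean signal of at least 100 were kept, or those with names ending in _x_at or _s_at were dropped. The rest used no intensity trend, took the mean over a gene's probe sets, or left out each pool in turn. Of the 36 genes, 30 kept their call under every alternative that could be computed for them; Egr3, Maff, Klf2, Nr4a2, Ier3 and Fosl2 did not. At the 99th percentile Nr4a2 (-0.35 log2 from background) and Klf2 (-0.38) lay under background, and Egr3, Maff and Ier3 did not pass; Nr4a2 also lay under it (-0.61) by the mean over probe sets. The number of genes above background was 25 to 30 over the alternatives, and 27 to 29 with a pool left out. The number with a range of at least 2-fold was 8, but 5 at the 99th percentile, where fewer genes passed, and 2 to 4 with a pool left out, where a range has fewer values; it was 6 with a pseudocount of 64 or with quantile normalization and 10 with medians aligned. The number of genes with pool 1 highest was 3, but 1 at the 99th percentile and 2 with medians aligned. It was 5 by the mean over probe sets and 4 to 10 with a pool left out. With pool 2 highest the number was 6, but 4 with quantile normalization and 5 by the mean over probe sets. It was 6 to 19 with a pool left out. With pool 3 highest it was 18 to 23 wherever pool 3 was kept. Counts above background were 21 to 25 for upstream regulators, 22 to 29 for other early response genes and 8 to 11 for MAP kinase feedback genes. The cause was not tested. No paired analysis was possible because the series has a single group. Signals close to background limit what can be said of Klf2, Nr4a2, Atf3, Junb, Egr4 and Arc.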
